A study of Mus musculus with 8 samples.

Results

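Alpha-defensins are the antimicrobial peptides that define the Paneth cell, and 10 of their genes were described here: Defa3, Defa17, Defa20, Defa21, Defa22, Defa23, Defa24, Defa26, Defa29 and Defa30. They were taken by name, as the rows of the deposited table whose Ensembl identifier belongs to one of these genes, and they make up 10 of 48440 genes in the table. The same table holds 28 protein-coding alpha-defensin rows, of which 12 further rows carry a Defa symbol and 6 are called Defa in RefSeq only, and 17 annotated pseudogenes. All 10 genes lie within one cluster on mouse chromosome 8 (GRCm38), from Defa21 at chr8:21025545-21026516 to Defa24 at chr8:21734494-21735471.

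RNA came from jejunal epithelium of female germ-free littermates that carried the Sox9-EGFP reporter, in which EGFP reports activity of the Sox9 locus, on a C57BL/6J background. In each of 4 littermate pairs (A to D) 1 animal stayed germ-free, and its littermate was conventionalized at 8-10 weeks of age by gavage of a slurry of feces from conventionally raised Sox9-EGFP mice and studied 2 weeks later. The conventionalized animals also moved to another animal house, so that colonization and the move cannot be told apart. The sort discarded cells with stain for CD31, CD45, Sytox-blue or Annexin-V, and only the fraction with low Sox9-EGFP was kept, which gave 4 conventionalized and 4 germ-free libraries. The gate selects on a reporter and not on Paneth cells, and in such bulk samples fewer Paneth cells and less alpha-defensin RNA per cell cannot be told apart.

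Paneth cells sit at the base of the small intestinal crypt beside the stem cells and release granules into the crypt lumen. Mouse alpha-defensins, also called cryptdins, are made as inactive precursors, and the protease Mmp7 cuts away the acidic pro-segment in the granule. The mature peptide, encoded by the last exon, folds around paired cysteines and disrupts bacterial membranes. Defa29 belongs to a cryptdin-related branch that shares the signal peptide and pro-segment but carries a different cysteine-rich end.

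The ends of the coding sequences are shown for genes that later differed in their share of the summed RNA of the genes described here. Whether these ends sort the genes by share was not tested. Defa17 and Defa3 have the same end, and both had a smaller mean share in conventionalized animals. The groups overlapped in the share of Defa3 and not of Defa17. Set against all coding alpha-defensin rows, Defa3 did not overlap either. The division of reads between Defa3 and Defa17 is uncertain, as described below. The end of Defa29 is unlike those of Defa20, Defa21 and Defa22, but all of these took a larger share in conventionalized animals. Each line gives the final 120 coding bases, stop codon included, 5′ to 3′, from the GENCODE M21 transcripts, with every in-frame cysteine codon (TGC or TGT) in capitals. On GRCm38 the stretches span chr8:21734699-21735377 for Defa24, chr8:21655963-21656641 for Defa17, chr8:21055243-21055921 for Defa23, chr8:21025750-21026423 for Defa21, chr8:21162482-21163155 for Defa22 and chr8:21509469-21510143 for Defa20, all on the plus strand and each joined across an intron. The stretch of Defa29 lies on the minus strand at chr8:21325999-21326118 within a single exon.
Defa24: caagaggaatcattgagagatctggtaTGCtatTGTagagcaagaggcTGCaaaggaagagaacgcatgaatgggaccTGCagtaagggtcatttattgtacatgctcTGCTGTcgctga
Defa17: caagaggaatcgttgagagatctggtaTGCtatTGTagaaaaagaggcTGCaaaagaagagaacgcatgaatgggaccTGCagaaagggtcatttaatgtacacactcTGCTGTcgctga
Defa23: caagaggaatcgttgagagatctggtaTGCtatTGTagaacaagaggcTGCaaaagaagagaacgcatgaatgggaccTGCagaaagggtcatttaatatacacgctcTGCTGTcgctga
Defa21: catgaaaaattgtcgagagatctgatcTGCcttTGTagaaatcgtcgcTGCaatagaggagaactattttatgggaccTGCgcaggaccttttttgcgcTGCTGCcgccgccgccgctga
Defa22: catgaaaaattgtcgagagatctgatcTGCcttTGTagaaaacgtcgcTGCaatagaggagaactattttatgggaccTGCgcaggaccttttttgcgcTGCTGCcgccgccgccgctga
Defa20: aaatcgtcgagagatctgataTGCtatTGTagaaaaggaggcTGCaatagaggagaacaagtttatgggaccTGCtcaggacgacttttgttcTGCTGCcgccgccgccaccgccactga
Defa29: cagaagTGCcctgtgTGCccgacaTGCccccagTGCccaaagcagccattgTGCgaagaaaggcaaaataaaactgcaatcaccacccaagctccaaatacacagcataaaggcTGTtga

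Each of the 10 genes had 6 cysteine codons in this stretch. Over the whole coding sequence Defa24 was 98.6% identical to Defa30 and 95.7% identical to Defa23, Defa3 and Defa17. Identity to Defa24 was lower for Defa26 (89.4%), Defa20 (82.4%), Defa22 (81.5%) and Defa21 (80.8%), and lowest for Defa29 (65.3%). The printed end of Defa17 is also that of Defa3, the end of Defa23 is that of Defa31, and the end of Defa20 is that of Defa2, Defa32 and Defa33. Defa21 and Defa22 were 99.3% identical to each other.

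Upstream sequence of Defa20, Defa21 and Defa22 was also near-identical. RefSeq windows on GRCm38.p6 were at hand for Defa20, Defa21, Defa22, Defa23 and Defa30, and not for Defa3, Defa17, Defa24, Defa26 and Defa29. The 250 bases before the annotated start are printed on the plus strand for chr8:21025295-21025544 (Defa21), chr8:21509008-21509257 (Defa20) and chr8:21054790-21055039 (Defa23), to show how close Defa21 and Defa20 are. Capitals mark TATAAA, the TATA box motif, and ATCAAAG, which is CTTTGAT on the other strand, a core sequence bound by TCF/LEF factors of the Wnt pathway.
Defa21 upstream: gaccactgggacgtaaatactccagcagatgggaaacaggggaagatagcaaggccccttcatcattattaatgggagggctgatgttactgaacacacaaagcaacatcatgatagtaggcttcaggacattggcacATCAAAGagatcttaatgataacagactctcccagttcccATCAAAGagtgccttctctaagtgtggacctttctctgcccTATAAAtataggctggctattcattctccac
Defa20 upstream: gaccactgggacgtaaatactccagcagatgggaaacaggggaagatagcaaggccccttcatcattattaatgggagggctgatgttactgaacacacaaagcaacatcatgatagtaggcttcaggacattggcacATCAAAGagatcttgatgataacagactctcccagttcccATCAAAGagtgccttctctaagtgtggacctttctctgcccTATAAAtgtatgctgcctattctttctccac
Defa23 upstream: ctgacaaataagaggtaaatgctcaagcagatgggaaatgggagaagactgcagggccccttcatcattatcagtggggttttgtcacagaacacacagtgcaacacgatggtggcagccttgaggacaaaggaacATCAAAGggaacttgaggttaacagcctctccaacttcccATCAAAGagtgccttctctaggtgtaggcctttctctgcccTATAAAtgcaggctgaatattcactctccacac

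The windows of Defa21 and Defa22 were 100% identical, and that of Defa20 was 98.0% identical to both. Identity of these windows to that of Defa23 was 77.95%, and Defa23 and Defa30 shared 70.8%. Gaps counted as differences, also at the ends of the windows. The annotated starts of Defa23 and Defa30 lie at unlike distances from TATAAA, 33 and 61 bases. Their 70.8% therefore includes this offset and is not a measure of divergence alone. TATAAA began 31 bases before the start in Defa20, Defa21 and Defa22, 33 bases before it in Defa23 and 61 bases before it in Defa30. CTTTGAT stood on the minus strand at 112 and 72 bases in Defa20, Defa21 and Defa22, at 114 and 74 bases in Defa23, and at 142 bases in Defa30. Each motif was searched on its own and on both strands. TATAAA was found in 12.4% and CTTTGAT in 3.21% of 32851 windows of the same length, against 15 and 13 of the 16 windows of alpha-defensin genes. Some of the 16 are near-identical copies, as for Defa20, Defa21 and Defa22, and are not separate observations. The variant CTTTGAA occurred in 4.46% of all windows and in 0 of those 16.

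Depth and library quality bear on all values that follow. Libraries held 6209039 (germ-free C) to 19139683 (conventionalized D) reads, estimated from the step between the deposited values. Reads of the 10 genes numbered 22099 in germ-free C to 146985 in germ-free B, and the least covered gene was Defa26 with 117 to 608 reads. Germ-free C stood apart from its group, with a median correlation of 0.792 to the other germ-free libraries across tested genes, against 0.871 to 0.943 for the other 7 libraries within their groups. Sum levels of other cell types' markers also differed between libraries: enteroendocrine markers stood at 9043 to 23167 CPM (counts per 1000000 after TMM scaling) in conventionalized and 37693 to 89328 CPM in germ-free libraries, with 8 of 12 called lower. Of all tested genes, 3.76% were called lower with limma. Stem cell markers stood at 5489 to 10692 against 898 to 5558 CPM, and goblet markers at 1596 to 50873 CPM, the highest in conventionalized A, against 4104 to 8219 CPM. The part of these markers in the alpha-defensin values was not tested.

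The labelled cells are intestinal epithelial cells, and Paneth cell RNA was present in every library. Lyz1, the Paneth cell lysozyme, stood at 685 to 2979 CPM, and Itln1, an intestinal lectin of Paneth and goblet cells, at 375 to 2063 CPM. Leukocyte markers summed to 12.2 to 37.7 CPM over 15 genes, none of which passed the filter on low values, and S100a8 was at 0 in every library. Granule genes of neutrophils summed to 1.81 to 15.9 CPM.

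The summed level of the 10 alpha-defensins did not separate conventionalized from germ-free animals. It was 5971, 10919, 9256 and 9632 CPM in conventionalized animals of pairs A to D, and 17795, 13088, 2536 and 3456 CPM in their germ-free littermates. The germ-free animals of pairs A and B lay above every conventionalized animal, and those of pairs C and D lay below every one. The means were 8945 ± 2106 and 9219 ± 7447 CPM (SD, n = 4 each), the difference of mean log2 values was 0.38 (SE 0.72), and the pair differences were -1.58, -0.26, 1.87 and 1.48 (log2, conventionalized minus germ-free). As a share of each library the sum was 0.456, 1.14, 1.07 and 0.752% in conventionalized and 1.59, 1.26, 0.356 and 0.395% in germ-free animals. Adding every row of the family gave 13913 ± 3221 against 13365 ± 10788 CPM, a log2 difference of 0.48 (SE 0.72).

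Spread between animals was wider in the germ-free group for each of the 10 genes. The highest germ-free library exceeded the lowest by 5.35 times (Defa3) to 12.9 times (Defa21), whereas the same ratio among conventionalized libraries was 1.66 (Defa29) to 2.05 (Defa20). The groups overlapped for all 10 genes, so that 0 of 10 were free of overlap in CPM, where 14.9% of the 10053 tested genes were. With limma on log2(CPM + 0.5), 0 of 10 genes passed an adjusted p of 0.05, where 4.92% of all tested genes did (1.16% higher and 3.76% lower after conventionalization). At an unadjusted p under 0.05 there were 2 of the 10, Defa21 and Defa22, where 27.8% of all tested genes were. With the littermate block 0 of 10 passed after adjustment, where 13.1% of tested genes did (8.08% higher and 5.02% lower), and 3 before it, Defa20, Defa21 and Defa22, all higher (35.5% of tested genes). With voom and sample quality weights 0 of 10 passed after adjustment, where 10.4% did, and 3 before it, but these were Defa17, Defa23 and Defa26, all lower (28.2% of tested genes). Fold changes are given on the log2(CPM + 0.5) scale, on which the median of all tested genes was 0.32 and that of the 10 genes 0.21; 8 of 10 were positive, against 70.2% of all tested genes. With voom 4 of 10 were positive and their median was -0.61, against 68.96% and 0.23 over all tested genes, and Defa3, Defa23, Defa24 and Defa30 turned in sign.

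**Figure D1:**
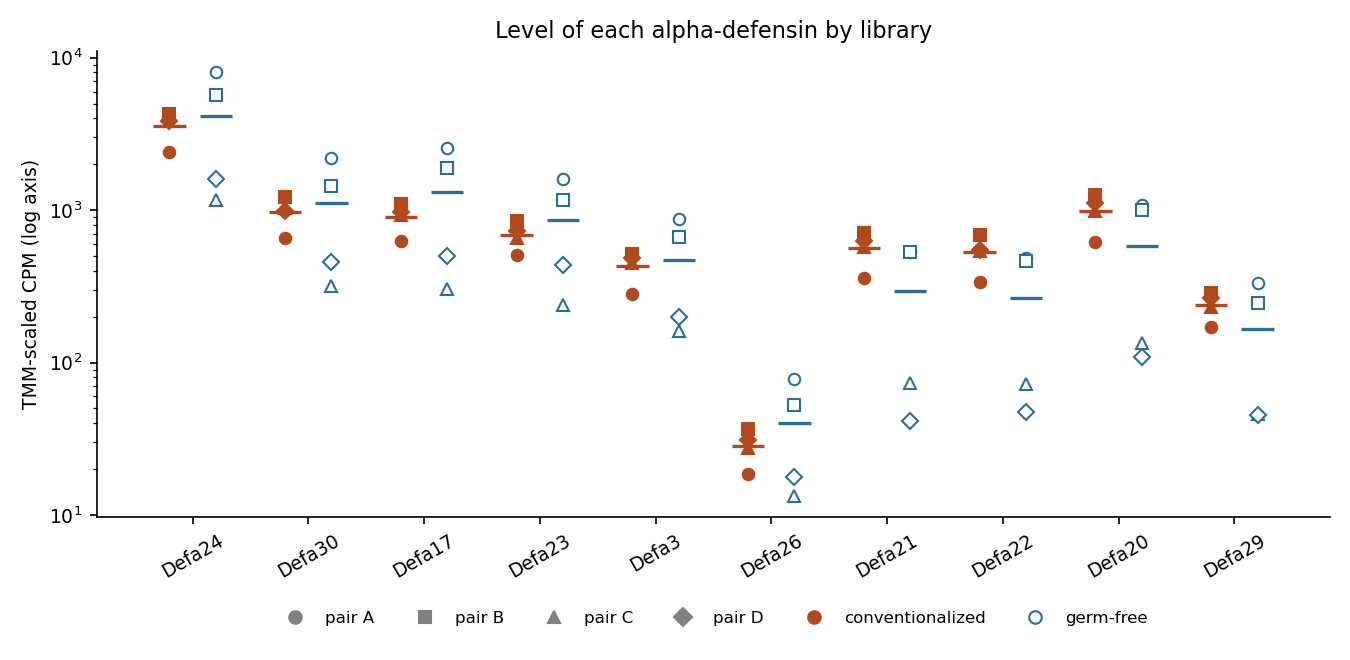
Level of each alpha-defensin (x axis) in CPM scaled with TMM on a log axis (y axis), with 1 point per library, filled for conventionalized and open for germ-free animals, a symbol for each littermate pair and a bar at the group mean. For every gene the germ-free points of pairs A and B lie far above those of pairs C and D, and the conventionalized points lie close together.

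Defa24, the most abundant of the 10 precursors per kilobase of transcript (8555 ± 1954 CPM per kb in conventionalized and 9841 ± 7909 in germ-free animals), followed the pattern of the sum. Its level was 2392, 4257, 3829.9 and 3859 CPM in conventionalized and 8066, 5652, 1172 and 1603 CPM in germ-free animals of pairs A to D. Germ-free animals A and B were the highest and C and D the lowest of all 8. The log2 fold change was 0.20 (SE 0.59, limma adjusted p = 0.833).

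Defa30, whose coding sequence is nearest to that of Defa24, stood at 661, 1219, 1039 and 993 CPM in conventionalized and 2206, 1440.1, 320.2 and 459 CPM in germ-free animals. Again the germ-free values enclosed all conventionalized ones (log2 fold change 0.21, SE 0.56, limma adjusted p = 0.817). Defa17, a cryptdin precursor with the same peptide end as Defa3, stood at 629, 1102, 924 and 977 CPM against 2550.0, 1876, 302 and 499 CPM. Its groups overlapped in the same way (log2 fold change -0.05, SE 0.60, limma adjusted p = 0.961). Defa3 itself was at 283, 512, 451 and 482 CPM against 868, 666, 162 and 199 CPM, with conventionalized animals between the germ-free extremes. Its log2 fold change was 0.19 (SE 0.51, limma adjusted p = 0.821).

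Defa23, a cryptdin precursor that shares its printed end with Defa31, stood at 507, 846, 656 and 735 CPM in conventionalized and 1600.3, 1165, 240.1 and 434 CPM in germ-free animals. The groups overlapped, and the log2 fold change was 0.02 (SE 0.53, limma adjusted p = 0.982). Defa26, the least abundant per kilobase (76.6 ± 20.3 against 108 ± 81.7 CPM per kb), stood at 18.6, 36.5, 27.7 and 31.1 CPM against 77.6, 52.5, 13.4 and 17.8 CPM. Germ-free A and B were again highest and germ-free C and D lowest, with a log2 fold change of -0.18 (SE 0.48, limma adjusted p = 0.812).

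Defa21, Defa22 and Defa20 differed from the genes above in the position of germ-free animals A and B. Defa21 stood at 357, 709.5, 572 and 626 CPM in conventionalized and 528, 533, 73.9 and 41.3 CPM in germ-free animals of pairs A to D. Germ-free A and B lay among the conventionalized animals, and germ-free C and D lay far below them. The log2 fold change was 1.67 (SE 0.71, limma adjusted p = 0.155, and 0.105 with the littermate block), higher in 3 of 4 pairs.

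Defa22, its near-identical neighbour in sequence, stood at 336, 689, 542 and 549 CPM in conventionalized and 484, 462, 72.9 and 47.3 CPM in germ-free animals. The order of animals was close to that of Defa21, with germ-free C and D lowest. The log2 fold change was 1.61 (SE 0.66, limma adjusted p = 0.148, and 0.0775 with the block). Defa20, a precursor with several near-identical copies, stood at 615, 1261, 984 and 1117 CPM in conventionalized and at 1084, 995, 134 and 109 CPM in germ-free animals. Germ-free A and B lay inside the conventionalized range and germ-free C and D outside it. The log2 fold change was 1.44 (SE 0.69, limma adjusted p = 0.187, and 0.116 with the block).

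Defa29, the cryptdin-related gene, stood at 172, 286, 231 and 264 CPM in conventionalized and 332, 246, 46.0 and 45.3 CPM in germ-free animals. Germ-free A was the highest and germ-free C and D the lowest of the 8, and the log2 fold change was 1.03 (SE 0.58, limma adjusted p = 0.243). All 10 conventionalized minus germ-free differences were negative in pair A and positive in pairs C and D. In pair B they were positive for Defa20, Defa21, Defa22 and Defa29 and negative for the other 6 genes.

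While the total did not separate the groups, the make-up of the alpha-defensin RNA did. Expressed as a percentage of the 10-gene sum within each library, which removes library scaling, 8 of 10 genes had no overlap between the groups: Defa20, Defa21, Defa22 and Defa29 took a larger share in every conventionalized animal, and Defa17, Defa23, Defa24 and Defa26 a smaller one. When every tested gene was set against the same sum, 3.48% showed no overlap (0.657% higher and 2.83% lower in conventionalized animals). This is not a like background, because the 10 genes are parts of the sum and most tested genes are not. The sum ran from 2536 to 17795 CPM among germ-free animals, and that spread enters the ratio of any gene outside it. The shares add up to a fixed total, so they are not independent of each other, and no test was run on them because the genes were chosen with results known.

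**Figure D2:**
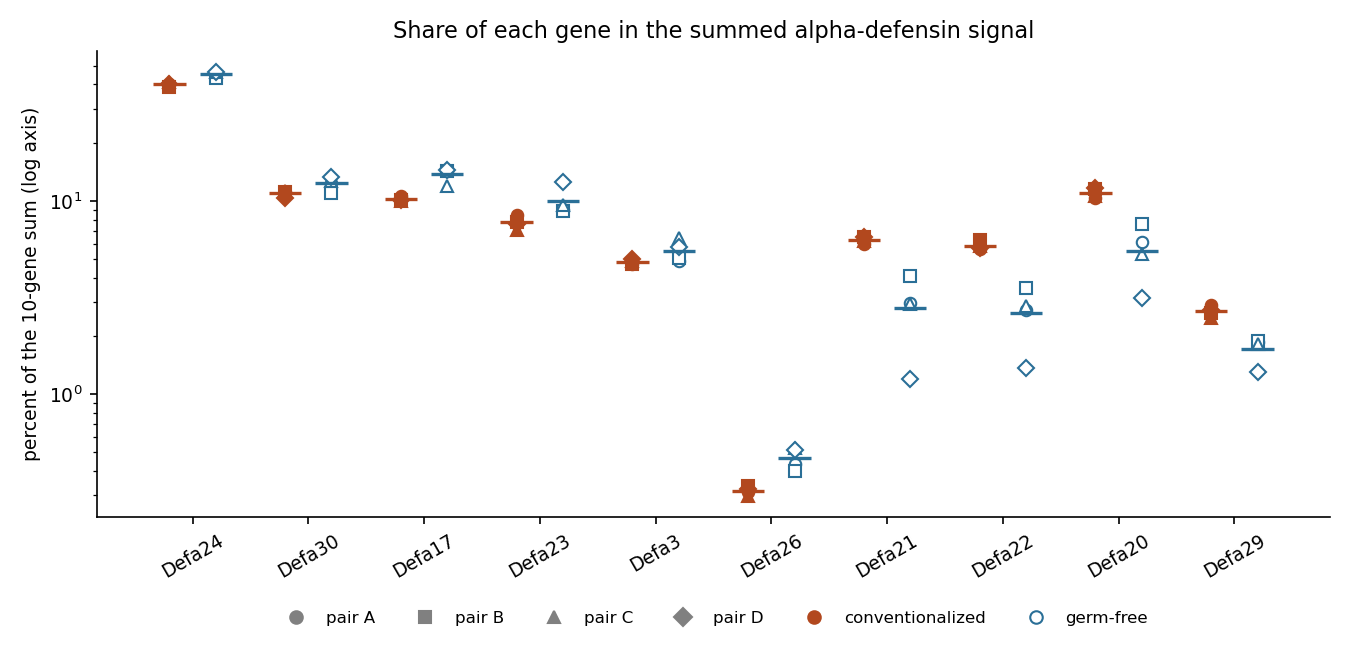
Percent of the summed CPM of the 10 genes taken by each gene (y axis, log scale), by library, with symbols as for the levels. Conventionalized points of Defa21, Defa22, Defa20 and Defa29 lie above all germ-free points, those of Defa24, Defa17, Defa23 and Defa26 lie below them, and Defa30 and Defa3 overlap.

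Defa21 made up 5.98, 6.50, 6.18 and 6.50% of the sum in conventionalized and 2.96, 4.08, 2.91 and 1.20% in germ-free animals of pairs A to D. The conventionalized shares were nearly equal (6.29 ± 0.254%, SD, n = 4), and all lay above the highest germ-free share (mean 2.79 ± 1.19%). Counting error was small beside this gap: the exact (Clopper-Pearson) 95% interval was 3.97 to 4.18% for germ-free B, on 5990 reads, and 5.81 to 6.16% for conventionalized A, on 4365 reads. These intervals cover counting error of reads only. The reads carry no molecular identifiers, so repeated reads of 1 molecule could not be set apart and the intervals may be too narrow. They also leave out how reads shared with Defa22 were divided.

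Defa22 made up 5.63, 6.31, 5.85 and 5.70% against 2.72, 3.53, 2.87 and 1.37%. As for Defa21, germ-free B came nearest to the conventionalized animals and germ-free D was lowest. Defa20 made up 10.3, 11.6, 10.6 and 11.6% against 6.09, 7.60, 5.28 and 3.15%, again with germ-free D lowest. Defa29 had the narrowest gap of the 4, at 2.88, 2.62, 2.49 and 2.74% against 1.86, 1.88, 1.81 and 1.31%.

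In the other direction, Defa24 made up 40.1, 39.0, 41.4 and 40.1% of the sum in conventionalized and 45.3, 43.2, 46.2 and 46.4% in germ-free animals. Every conventionalized value lay below the lowest germ-free value, that of pair B. Defa17 made up 10.5, 10.1, 9.99 and 10.1% against 14.3, 14.3, 11.9 and 14.5%, with germ-free C nearest to the conventionalized animals. Defa23 made up 8.49, 7.75, 7.09 and 7.63% against 8.99, 8.90, 9.47 and 12.6%, a narrow separation with germ-free D high. Defa26 made up 0.311, 0.335, 0.2996 and 0.323% against 0.436, 0.401, 0.529 and 0.514%.

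Defa30 and Defa3 did not separate the groups. Defa30 made up 10.9 ± 0.427% against 12.3 ± 0.960%, and Defa3 made up 4.83 ± 0.141% against 5.53 ± 0.690%. For Defa3 only the germ-free animal of pair A, at 4.88%, lay inside the conventionalized range.

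Ratios between single genes do not use the family sum as a denominator. They still depend on how reads shared by near-identical copies were divided, which is uncertain, as described below. Of windows of 100 bases, Defa20 shared 99.7% and Defa17 shared 90.6% with other family genes. Defa21 and Defa22 shared 40.4% and 40.3%, in each case with the other. Relative to Defa24, Defa21 was higher in conventionalized animals by a log2 difference of 1.48 (SE 0.40) and Defa22 by 1.42 (SE 0.32). Defa20 was higher by 1.24 (SE 0.29) and Defa29 by 0.83 (SE 0.15). None of the 4 ratios overlapped between groups, but the percentage of all tested genes without overlap relative to Defa24 was not computed. These 4 are the genes with a larger share of a sum in which Defa24 is the largest part. The ratios therefore restate the shares and are not a separate result. The log2 ratio of Defa21 to Defa24 was -2.74, -2.58, -2.74 and -2.62 in conventionalized and -3.93, -3.41, -3.99 and -5.28 in germ-free animals, with germ-free D the lowest. The ratio of Defa30 to Defa24 did not differ beyond its error (difference 0.005, SE 0.047), and that of Defa17 to Defa24 overlapped between the groups (difference -0.26, SE 0.085).

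A reference outside the family gave another picture. Set against Lyz1, only Defa26 of the 10 genes had no overlap between groups, where 5.68% of tested genes had none. Defa21 per Lyz1 was 0.219, 0.342, 0.369 and 0.371 in conventionalized and 0.177, 0.254, 0.108 and 0.0479 in germ-free animals, so that germ-free B lay above conventionalized A. The 10-gene sum per Lyz1 was 5.15 ± 1.04 against 4.97 ± 1.31 and overlapped. Set against the sum of all 28 coding rows, all 10 genes were free of overlap, where 3.8% of tested genes were. Here too the 10 genes are parts of the sum and most tested genes are not, so this percentage is not a like background.

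The remaining family rows were examined for the same pattern. Of the 18 coding rows outside the 10 genes, 14 reached 10 CPM in at least 4 libraries: Defa2, Defa5, Defa31, Defa32, Defa33, Defa34, Defa36, Defa37, AY761184, Gm7849, Gm7861, Gm14851, Gm15292 and Gm15293. Their share of the 28-row sum was free of overlap for 10 of the 14, of which 9 were larger in conventionalized animals and 1, Defa31, was smaller. Of all tested genes set against this sum, 3.8% were free of overlap. This is not a like background, because the 14 rows are parts of the sum. Several of the 14, such as Defa2 and Defa33, are near-identical copies and are not separate observations. None of the 14 passed limma after adjustment, where 4.92% of all tested genes did. The lowest adjusted p was that of Defa34, which stood at 29.8, 49.1, 37.1 and 42.1 CPM against 24.6, 27.4, 1.49 and 0.269 CPM, without overlap between groups (log2 fold change 2.78, limma adjusted p = 0.0956).

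Grouping the 28 coding rows by coding identity of at least 95% gave 7 sequence groups. The group of Defa24, with Defa3, Defa17, Defa23, Defa30 and Defa31, took 51.3, 49.9, 51.8 and 50.1% of the family signal in conventionalized and 63.9, 61.9, 63.5 and 70.6% in germ-free animals. The groups of animals did not overlap, and germ-free D was the highest. The group of Defa20, with Defa2, Defa32 and Defa33, took 15.3 ± 1.04% against 7.97 ± 2.72%, and Defa21 with Defa22 took 7.82 ± 0.353% against 3.72 ± 1.42%. The group of Defa37, which holds none of the 10 genes, took 5.47 ± 0.184% against 3.41 ± 0.309%. None of these 3 shares overlapped between the groups.

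The other sequence groups complete the family. Defa26 and Gm15292 together took 0.341 ± 0.0263% against 0.461 ± 0.0187%, without overlap, although Gm15292 alone, at 0.137% in both groups, overlapped. The cryptdin-related group of Defa29, Gm7849, Gm7861, Gm14851 and AY761184 took 20.3 ± 0.796% against 19.5 ± 1.001% and overlapped. Within it Defa29 was higher in conventionalized animals (1.72 against 1.18%), whereas Gm14851 was at 3.94 against 4.46% and overlapped. Defa25, Defa27 and Defa28 together took at most 0.0179% in any library. The grouping was made after the values were seen and is a description.

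**Figure D3:**
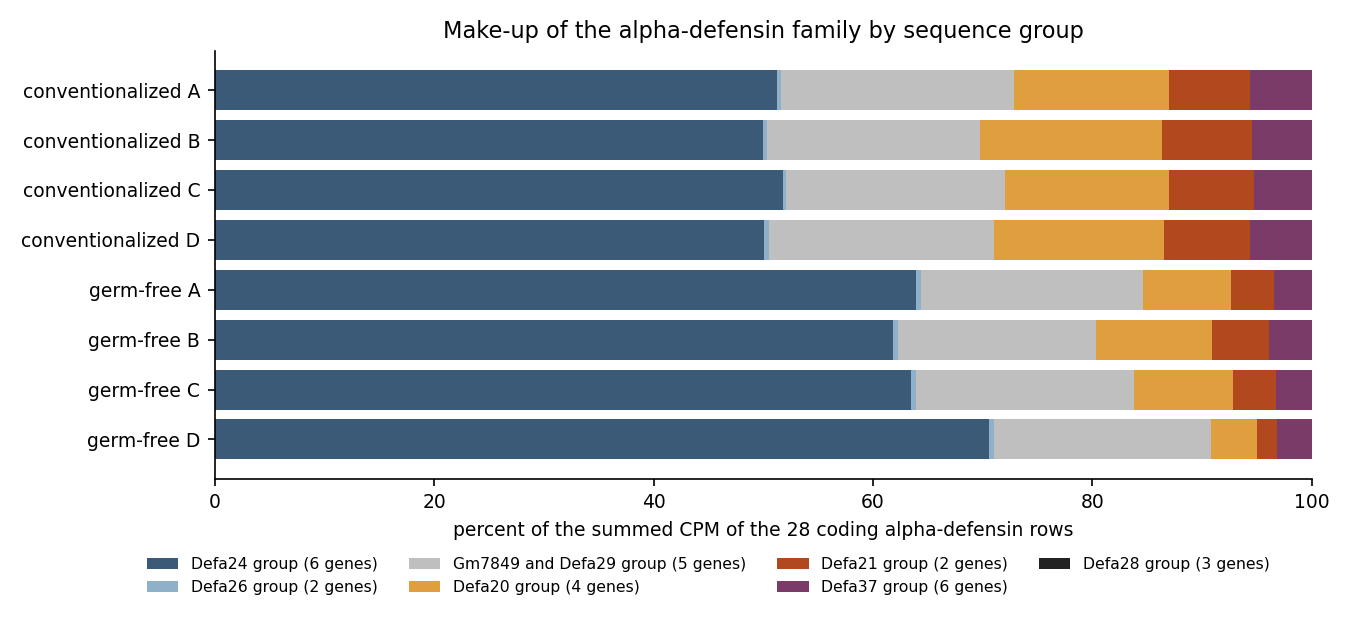
Stacked bars of the percent of the summed CPM of the 28 coding alpha-defensin rows (x axis) taken by each sequence group, 1 bar per library (y axis). The Defa24 group fills 49.9 to 51.8% of the conventionalized bars and 61.9 to 70.6% of the germ-free bars, and the Defa20, Defa21 and Defa37 groups are wider in all 4 conventionalized bars.

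How far single genes can be told apart depends on sequence that near-identical copies share. Of all windows of 100 bases, the read length, in the 10 transcripts, 45.5% also occurred in a transcript of another gene, and none of those genes lay outside the family. Defa24 shared 0% of its windows, Defa30 0.334%, Defa26 1.10% and Defa29 11.002%, so that the main part of each is its own. Defa21 and Defa22 shared 40.4% and 40.3% of their windows, in each case with the other.

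For the remaining 4 the division among copies is uncertain. Defa17 and Defa3 shared 90.6% and 86.8% of windows, with each other, and Defa23 shared 89.1% with Defa31. Defa20 shared 99.7% of its windows, of which the largest part, 74.5%, was shared with Defa32. None of the 10 shared a window of 100 bases with a gene of another sequence group, and with windows of 50 bases the largest share with any 1 such gene was 7.18%. The deposited values of the 10 genes were whole multiples of the library step in 80 of 80 cases, within 0.02 of a read. The sources used here do not say whether shared reads were divided by estimate and then rounded.

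**Figure D4:**
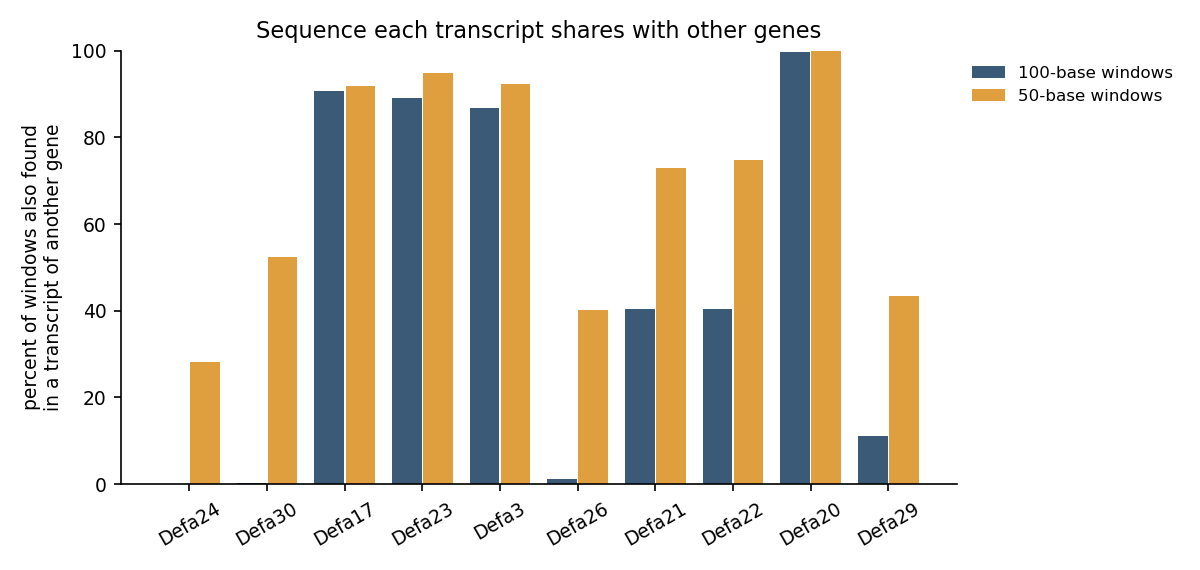
Percent of the 100-base (blue) and 50-base (orange) windows of each transcript that also occur in a transcript of another gene (y axis), by gene (x axis). Defa24, Defa30 and Defa26 share 0 to 1.10% of 100-base windows, and Defa20 shares 99.7%.

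Other products of Paneth cells were compared in a list of 12, of which 9 were tested. With limma 1 rose, Mptx2, a pentraxin of Paneth cell granules, and 0 fell. Of all tested genes, 1.16% were called higher and 3.76% lower. The median log2 fold change of the 9 was 0.38. Mptx2 stood at 134, 227, 92.6 and 82.8 CPM in conventionalized and 52.3, 47.4, 5.74 and 2.24 CPM in germ-free animals. Every conventionalized animal lay above every germ-free one (log2 fold change 3.11, SE 0.78, limma adjusted p = 0.037, and 0.00411 with the block). The call was lost without any 1 of the 4 conventionalized libraries or of the germ-free libraries of pairs B, C and D (limma adjusted p = 0.0573 to 0.296). It was also lost with library size alone (limma adjusted p = 0.0558) and in further settings, and was kept in 6 of 20 alternative settings. Over these settings the adjusted p of Mptx2 ran from 0.0027 to 0.491 (limma or voom).

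The other tested genes of this list did not pass. Ang4, a microbicidal ribonuclease, stood at 213, 236, 134 and 139.9 CPM against 211, 149, 44.8 and 59.4 CPM, overlapping (log2 fold change 0.87, limma adjusted p = 0.213). RNA of the phospholipase gene Pla2g2a had a log2 fold change of 0.99 (limma adjusted p = 0.296), and that of the stress-response factor Nupr1 of 0.90 (limma adjusted p = 0.135). Whether an active phospholipase is made cannot be told from RNA. Lyz1 stood at 1635, 2073, 1549 and 1689 CPM against 2979, 2104, 685 and 863 CPM, and its germ-free animals had the order of the 10-gene sum (log2 fold change 0.31, limma adjusted p = 0.674).

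**Figure D5:**
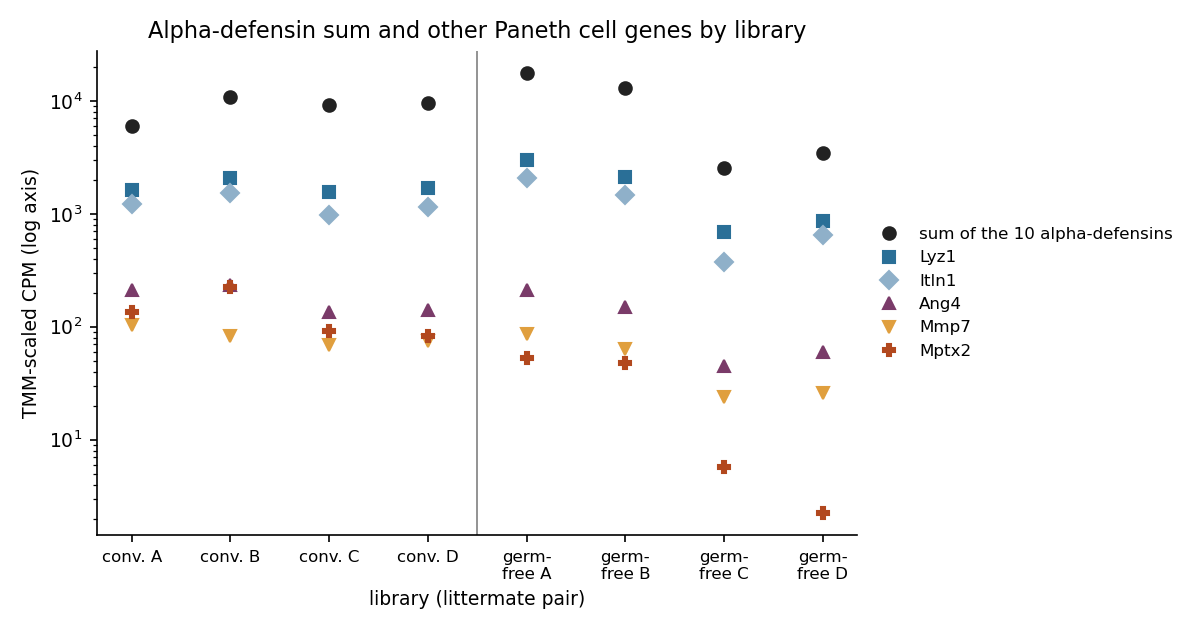
TMM-scaled CPM on a log axis (y axis) of the 10-gene alpha-defensin sum and of Lyz1, Itln1, Ang4, Mmp7 and Mptx2 in each library (x axis, by littermate pair; conv., conventionalized). Germ-free C and D are the 2 lowest libraries for each of the 6, and for Mptx2 all germ-free points lie below all conventionalized points.

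Genes that process alpha-defensins or control Paneth cells formed a list of 28, of which 20 were tested. With limma 0 rose and 1 fell, Dll4. That count is near the share over all tested genes, of which 4.92% were called in either direction. Dll4, a Notch ligand of secretory cells, stood at 36.3, 23.1, 17.8 and 28.3 CPM against 69.6, 52.4, 88.4 and 42.2 CPM without overlap (log2 fold change -1.23, SE 0.32, adjusted p = 0.0388). This call was lost without the conventionalized library of pair B, C or D, or without germ-free A (limma adjusted p = 0.0859 to 0.116). Mmp7, the protease that activates the precursors, stood at 105, 82.1, 69.3 and 74.4 CPM against 85.9, 64.0, 23.9 and 26.0 CPM. Germ-free C and D were lowest and the groups overlapped (log2 fold change 0.91, limma adjusted p = 0.158).

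Wnt signalling directs Paneth cell maturation, and Tcf7l2 and Wnt3 passed with some settings only. Tcf7l2, a TCF/LEF factor, stood at 36.4, 40.5, 28.04 and 35.3 CPM against 24.4, 17.9, 12.9 and 14.7 CPM, without overlap (log2 fold change 1.01, limma adjusted p = 0.0608, against 0.0374 with the block, 0.0383 with upper-quartile scaling and 0.0343 with voom). Wnt3, the ligand made by Paneth cells, was at 19.8 ± 7.44 against 50.1 ± 20.4 CPM (log2 fold change -1.29, limma adjusted p = 0.076, against 0.0448 with the block, 0.0468 on library size alone and 0.0092 with voom). With the block 2 genes of the list rose, Tcf7l2 and the potassium channel gene Kcnn4 (limma adjusted p = 0.0417), and 2 fell, Wnt3 and Dll4, where 13.1% of all tested genes were called. Kit, a receptor kinase found on Paneth and goblet cells, was at 28.2 ± 13.7 against 63.6 ± 29.8 CPM (log2 fold change -1.16, limma adjusted p = 0.0893).

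Across the 8 libraries the genes most like the 10-gene sum were Lyz1 (Pearson r of log2 CPM 0.972), Itln1 (0.940), the lipase-related gene Pnliprp2 (0.938), Slc25a33 (0.931), Tmem176a (0.929), Chkb (0.924), Trim56 (0.918) and Ggh (0.918), chosen among tested genes outside the family. The points share libraries and scaling, and the values are descriptive. Mptx2 (0.719), Mmp7 (0.797) and Ang4 (0.838) followed the sum less closely. Among the 10 genes themselves the 45 pairwise values ran from 0.688 (Defa22 and Defa26) to 0.999, with a median of 0.918. Defa20, Defa21, Defa22 and Defa29 had values of at least 0.978 with one another, and Defa17, Defa23, Defa24, Defa26, Defa3 and Defa30 of at least 0.967, while values between these sets were at most 0.920. The sets were taken from the shares in the same 8 libraries, so higher values within them are not separate support.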

How the data were processed

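RNA-seq of 8 sorted jejunal epithelial samples (4 conventionalized, 4 germ-free) was used. Per the labels, libraries were made from 10 ng of total RNA and read as 100 bp single-end reads. Per the submitters' processing notes, the tools were Trimmomatic 0.36, STAR 2.4.2a, R 3.3.1 and DESeq2 1.12.4 with build mm10, and the series text names Salmon. The authors deposited 1 normalized signal value for each gene and library: 99.8% of the values of 27909 genes with 1 annotated transcript were whole multiples of a step per library (within 0.02 of a read), against 22.9% in 20149 genes with several. Dividing the deposited signal by the step gave the read numbers quoted. Of 48440 identifiers, 48058 matched GENCODE M21, and 10128 genes were at 0 in every library.

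Values were rescaled to CPM with trimmed mean of M values (TMM) factors, computed from the formula with trims of 30% and 5%. The 10053 genes that reached 10 CPM in 4 or more libraries were fitted with limma 3.58.1 (R 4.3.3; trend, robust; two-sided) on log2(CPM + 0.5), with condition alone and Benjamini-Hochberg adjustment over all tested genes, and called under 0.05. The model was run on simulated counts with the same spread in both groups and no outlying library. That run does not show how the model performs on genes with a wider germ-free spread, such as those described here. Sequences were compared with Biopython 1.88 in Python 3.11.15, with SciPy 1.17.1 for intervals. Each library is a different animal, and sums and shares carry no p-value. The pairs come from the littermate label; deviations of littermates from their group means correlated at 0.142, -0.156, 0.307 and -0.00634 in pairs A to D.

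All 10 genes are given. From each further list, up to 4 genes with the lowest p and any called gene were named, plus the 8 genes most correlated with the sum; the other genes named serve as reference values or for calls made with the block, and were chosen after their values were seen. The genes and lists were chosen with earlier results of these data known. Alternatives were other scalings, filters and pseudocounts, voom, the littermate block and leaving out libraries. Other denominators for shares, and library totals without the family, were added after seeing the data.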

Additional observations from a re-analysis of the deposited data

Results flagged for a closer look

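With 4 animals per group, a single animal was called far from the others where its gap to the nearest one exceeded the 95% critical value of Dixon's test, as a part of the group's range. Of 42 groups of values examined, 4 did so, where chance gives about 1 in 20, and all 4 were shares of the 10-gene sum rather than levels. Defa23 took 12.6% in germ-free D against 8.90 to 9.47% in the other germ-free animals (gap 0.846 of the range). Defa29 took 1.31% in germ-free D against 1.81 to 1.88% (0.891). Defa17 took 11.9% in germ-free C against 14.3 to 14.5% (0.951). Defa30 took 10.3% in conventionalized D against 11.1 to 11.2% (0.836). Germ-free D therefore had both a high share of Defa23 and a low share of Defa29.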

How the results depend on the processing

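The count of alpha-defensins called was 0 under each setting run. Defa20, Defa21, Defa22 and Defa29 had positive log2 fold changes under each, of 0.33 to 1.97, 0.53 to 2.21, 0.55 to 2.12 and 0.0757 to 1.54, with adjusted p of 0.0921 to 0.744, 0.0783 to 0.649, 0.0737 to 0.620 and 0.125 to 0.935 (limma or voom). The lowest of each range of fold changes came from voom. With the littermate pair as a replicate block 0 were called, as without it, and with the block or without it on library size alone the log2 fold changes were -0.21 for Defa23, -0.0269 for Defa30, -0.0465 for Defa3 and -0.0315 for Defa24, opposite in sign to the values reported. With voom they were -0.76, -0.64, -0.59 and -0.67, Defa17 and Defa26 were at -0.99 and -0.93, and Lyz1 and Itln1 were at -0.31 and -0.28. Without germ-free C and conventionalized A they were -0.33, -0.0713, -0.0162 and -0.0720, and Itln1 was at -0.0633. Leaving out 1 library at a time gave -0.47 to 0.44 for Defa23, -0.25 to 0.67 for Defa30, -0.21 to 0.59 for Defa3, -0.26 to 0.67 for Defa24, -0.59 to 0.43 for Defa17, -0.59 to 0.24 for Defa26, -0.0249 to 0.68 for Lyz1 and -0.0534 to 0.76 for Itln1; the cause was not tested. The difference in the 10-gene sum ran from -0.0912 to 0.84 and that of all Defa symbols from 0.0121 to 0.93 in the same way, and on library size alone, where the median of all tested genes moved from 0.32 to 0.09, they were 0.14 and 0.24. Among 20 alternative settings Mptx2 was called in 6, Dll4 in 15, Wnt3 in 6, Kit in 4, Tcf7l2 in 3 and Kcnn4 in 1, each with its direction unchanged. The number of genes whose share did not overlap was 8 to 9 without 1 library, 10 against all coding rows and 1 relative to Lyz1. Of all tested genes, 3.8% did not overlap against all coding rows and 5.68% relative to Lyz1. Without 1 library overlap is less likely for any gene, and the percentage of all tested genes was not computed there. Windows of 50 bases raised the shared part from 45.5 to 68.7%, by construction. Depth limited Defa26 most, at 117 reads in germ-free C.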
